A study of Mus musculus with 4 samples.

Results

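The 6 genes that had led lymphocyte clusters of TCDD-treated mice, Gadd45b, Perp, Furin, Ramp3, Ctla2a and Ctla2b, were followed across the cell types of the mouse liver. They were taken by symbol, and all 6 were among the 31053 genes counted. They were selected on their levels between libraries, because they headed 3 groups of T or NK cells found almost only after TCDD, in a clustering of the Naïve, ConA+Veh and ConA+TCDD libraries. Their difference between ConA+TCDD and ConA+Veh was therefore known when they were picked and is given here as a description, while the ConA+FICZ library had no part in that choice. The ConA+TCDD library did have a part in it, so a lower level in ConA+FICZ than in ConA+TCDD is a description too. The Naïve and ConA+Veh libraries also had a part in it, so ratios over either of them are descriptions as well.

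Liver mononuclear cells of C57BL/6 mice aged 8 to 10 weeks were profiled one cell at a time in droplets, where each captured RNA molecule receives a barcode of its cell and a barcode of its own, the UMI. One group was untreated (Naïve). The other 3 were all given concanavalin A (ConA), a lectin from jack beans that activates T cells and inflames the liver of mice, and were studied 24 hours after it. After ConA, one of these groups received the corn oil vehicle (ConA+Veh, named in its label only as ConA) and another TCDD (ConA+TCDD), and the last was labelled as given ConA and FICZ (ConA+FICZ). TCDD, a dioxin that resists breakdown, and FICZ, a tryptophan product that is broken down quickly, both bind the aryl hydrocarbon receptor (AhR). The dose, vehicle and timing of FICZ and the number of mice behind each library were not given in the sources used here, so the ligands are set side by side and not at matched doses. Each condition had 1 library, so no test between conditions could be made, and every interval below is an exact 95% interval that covers counting error only, not the spread between mice.

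The AhR waits in the cytoplasm until a ligand binds, then enters the nucleus, pairs with Arnt and switches on genes that carry its recognition site. The listed genes have different roles. Gadd45b is a small stress-induced protein that binds the kinase Map3k4 and so turns on p38 signalling, which helps T cells to make interferon gamma. Perp is a membrane protein that p53 switches on, and it holds epithelial cells together at desmosomes. Furin is a protease of the Golgi that cuts proproteins, among them the precursor of TGF-beta, into their active form. Ctla2a and Ctla2b resemble the propeptide of cysteine cathepsins, and Ctla2a inhibits cathepsin L. Ramp3 is a partner protein that turns the calcitonin receptor-like receptor into a receptor for adrenomedullin.

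All 6 are protein-coding genes of the mouse build GRCm38. Gadd45b (ENSMUSG00000015312) lies at chr10:80930073-80932204 and Perp (ENSMUSG00000019851) at chr10:18845020-18857073, both on the forward strand. Furin (ENSMUSG00000030530) lies at chr7:80388585-80405436 on the reverse strand and Ramp3 (ENSMUSG00000041046) at chr11:6658521-6677475 on the forward strand. Ctla2a (ENSMUSG00000044258) at chr13:60934155-60936625 and Ctla2b (ENSMUSG00000074874) at chr13:60895350-60897447 are neighbours on the reverse strand.

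Promoters of 5 of the 6 genes were matched in RefSeq (GRCm38.p6), each from 250 bases before to 50 bases after an annotated start of a transcript. They were searched on both strands for GCGTG, the core of the site that the AhR and Arnt bind, which reads CACGC on the other strand and overlaps no other motif searched. It was present in a promoter of 3 listed genes, Gadd45b, Furin and Ramp3, and in 32.4% of all 32851 promoters of that length. The former counts genes with the core in any of their promoters and the latter single promoters, so the units are unlike. The promoters of these 3 genes are shown because their levels are set against 2 AhR ligands below, and those of the Ctla2 pair because they are nearly alike while the levels of the pair were not. Each is read 5′ to 3′ along its gene, with the core in capitals.
Gadd45b, chr10:80929841-80930140, forward strand: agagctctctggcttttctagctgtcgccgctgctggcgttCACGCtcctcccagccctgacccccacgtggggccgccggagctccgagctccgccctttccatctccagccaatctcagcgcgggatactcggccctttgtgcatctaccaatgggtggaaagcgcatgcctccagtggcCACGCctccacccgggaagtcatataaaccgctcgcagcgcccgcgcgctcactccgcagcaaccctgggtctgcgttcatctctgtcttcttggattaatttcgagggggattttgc
Furin, chr7:80402763-80403062, reverse strand: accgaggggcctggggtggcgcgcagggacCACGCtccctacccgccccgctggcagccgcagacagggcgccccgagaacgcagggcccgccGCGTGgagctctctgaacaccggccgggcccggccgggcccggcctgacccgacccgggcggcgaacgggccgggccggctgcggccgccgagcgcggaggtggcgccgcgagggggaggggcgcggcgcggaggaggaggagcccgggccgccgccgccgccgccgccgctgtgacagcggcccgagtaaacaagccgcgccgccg
Ramp3, chr11:6658283-6658582, forward strand: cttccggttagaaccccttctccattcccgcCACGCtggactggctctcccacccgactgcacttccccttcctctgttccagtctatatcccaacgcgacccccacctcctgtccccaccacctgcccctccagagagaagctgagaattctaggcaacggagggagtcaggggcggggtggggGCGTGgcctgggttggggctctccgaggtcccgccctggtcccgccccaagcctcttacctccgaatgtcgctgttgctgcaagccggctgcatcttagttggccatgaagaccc
Ctla2a, chr13:60936576-60936875, reverse strand: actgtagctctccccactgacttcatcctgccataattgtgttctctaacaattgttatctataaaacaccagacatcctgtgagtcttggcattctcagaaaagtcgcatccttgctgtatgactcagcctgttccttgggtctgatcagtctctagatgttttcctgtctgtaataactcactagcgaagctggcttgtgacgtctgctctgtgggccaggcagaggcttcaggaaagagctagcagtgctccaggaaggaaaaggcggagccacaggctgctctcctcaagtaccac
Ctla2b, chr13:60897398-60897697, reverse strand: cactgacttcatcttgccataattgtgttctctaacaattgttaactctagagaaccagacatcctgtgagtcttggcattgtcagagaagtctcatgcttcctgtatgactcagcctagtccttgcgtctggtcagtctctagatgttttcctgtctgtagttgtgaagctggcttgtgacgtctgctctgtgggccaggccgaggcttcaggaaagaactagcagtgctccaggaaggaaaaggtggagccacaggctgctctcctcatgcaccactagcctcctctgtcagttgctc
Gadd45b, this promoter of Furin and Ramp3 each held the core at 2 places, a second promoter of Furin held it at 1, and the Ctla2a and Ctla2b promoters held it nowhere in these windows. The Furin promoter shown lies inside the gene span given above. The second, at chr7:80405387-80405686, lies at the end of the span where the gene starts. A match describes the letters only. The Ctla2a and Ctla2b promoters were identical at 256 of 278 aligned bases (92.1%), and their transcripts at 813 of 1011 aligned bases (80.4%). Of the 50-base stretches of the Ctla2a transcript, 7.10% also occur in Ctla2b, and of those of Ctla2b 15.7% also occur in Ctla2a, so counts of this pair may be split or lost between the genes.

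The Naïve library held 2086 cells, ConA+Veh 2779, ConA+TCDD 1880 and ConA+FICZ 2555, with median depths of 2161 to 3984 UMIs per cell. Of the 9300 cells, 45 barcodes occurred in more than 1 library. A cell was called T-like, NK-like and so on when it held a UMI of at least 2 of 6 markers of that class and of more markers than of any other class. This gave 512 T-like cells in Naïve, 799 in ConA+Veh, 673 in ConA+TCDD and 561 in ConA+FICZ, the order kept wherever 4 values are listed. The ConA+TCDD library stood apart in the cells this left without a class, which were 22.1% of its cells against 7.33% to 13.1% in the other libraries. Its T-like cells also held the least of the T markers, 1859 CPM (UMIs per 1000000) summed over the 6 markers, against 2028 in ConA+FICZ, 2234 in ConA+Veh and 3318 in Naïve. The ConA+FICZ library stood apart in its hepatocyte-like cells, 229 against 7 to 31 in the other libraries, and its T-like cells held 59.2 CPM of hepatocyte markers against 3.62 to 15.4. Levels below are UMIs of a gene per 1000000 UMIs of a class of cells in a library (CPM), and folds are given as log2 ratios of CPM.

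In T-like cells, 5 of the 6 genes were higher in ConA+TCDD than in ConA+Veh, and all 6 were lower in ConA+FICZ than in ConA+TCDD, although the interval included 0 for Perp in the former and reached 0.00 for Ctla2b in the latter. Over T-like cells of all depths, Gadd45b and Ctla2a stood in ConA+FICZ at the level of ConA+Veh. Over the same cells, Perp, Furin, Ramp3 and Ctla2b stood below that level, although Furin did not do so in every subset given below. None of the 6 was 2-fold or more higher in ConA+TCDD over ConA+Veh, beside 0.991% of the 10391 genes with at least 20 UMIs in the pair of libraries, and nothing is read from this count since that contrast picked the genes; 2.17% were as much lower. In ConA+FICZ over ConA+Veh none reached 2-fold, beside 1.59% of genes higher and 2.43% lower. In ConA+FICZ over ConA+TCDD, 2 of the 6, Perp and Ramp3, were 2-fold or more lower, beside 1.88% of 10204 genes, and none was higher, beside 2.1%. Nothing is read from this count either, since the genes were picked with ConA+TCDD in view. With markers counted after every cell had been thinned to 1000 UMIs, the call was lost for Perp (-0.25) and kept for Ramp3 (-2.12). The median log2 ratio of the 6 was 0.65 in ConA+TCDD over ConA+Veh (-0.05 over all genes tested), -0.45 in ConA+FICZ over ConA+Veh (0.00 over 10442 genes) and -0.89 in ConA+FICZ over ConA+TCDD (0.03). These 3 comparisons share libraries: a high value in ConA+TCDD raises the first and lowers the third.

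**Figure D1:**
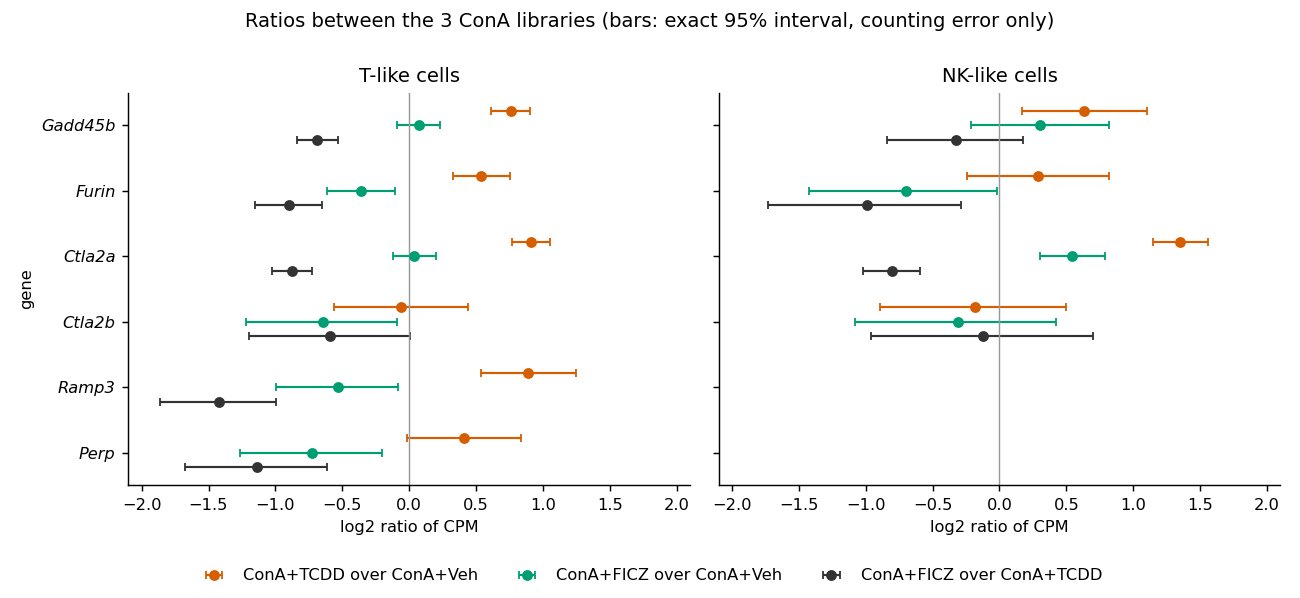
Log2 ratio of CPM (horizontal axis) for each listed gene in T-like cells (left) and NK-like cells (right), for 3 pairs of libraries, with exact 95% intervals that cover counting error only; genes with under 20 UMIs in a pair of libraries have no point. In T-like cells the black points for ConA+FICZ over ConA+TCDD are below 0 for all 6 genes, from -0.59 for Ctla2b to -1.42 for Ramp3.

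Gadd45b was measured with 153 UMIs in Naïve, 703 in ConA+Veh, 895 in ConA+TCDD and 586 in ConA+FICZ T-like cells. Its level was 81.4 CPM in Naïve (69.0 to 95.4), 79.8 in ConA+Veh (74.0 to 85.9), 135 in ConA+TCDD (126 to 144) and 84.0 in ConA+FICZ (77.3 to 91.1). ConA+TCDD alone stood apart, and the other 3 libraries overlapped within counting error. The log2 ratio was 0.76 (0.62 to 0.90) in ConA+TCDD over ConA+Veh, 0.07 (-0.09 to 0.23) in ConA+FICZ over ConA+Veh and -0.69 (-0.84 to -0.53) in ConA+FICZ over ConA+TCDD. Of the other stress genes of this family and the kinases of this pathway, Gadd45a, Gadd45g, Map3k4, Map2k7 and Mapk14, 0 of 5 reached 2-fold in any of the 4 comparisons. Gadd45g was at 26.9 CPM in ConA+Veh, 27.5 in ConA+TCDD and 27.5 in ConA+FICZ.

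Perp was sparse in T-like cells, with 3, 96, 96 and 46 UMIs in the same order. Its level was 1.60 CPM in Naïve (0.329 to 4.66), 10.9 in ConA+Veh (8.83 to 13.3), 14.5 in ConA+TCDD (11.7 to 17.7) and 6.59 in ConA+FICZ (4.83 to 8.79). All 3 ConA libraries were above Naïve. Among the listed genes it was the 1 that was 2-fold or more higher in ConA+Veh over Naïve, with a log2 ratio of 2.77 (1.18 to 5.07) that rests on 3 Naïve UMIs, beside 8.57% of 10081 genes, and none was as much lower, beside 15.5%. Over all T-like cells together, ConA+TCDD and ConA+Veh could not be told apart (0.41, -0.01 to 0.83). ConA+FICZ was lower than ConA+TCDD (-1.14, -1.68 to -0.61), a ratio that was -0.25 with markers counted after thinning. A single cell held 14 of the ConA+Veh UMIs and another 12 of the ConA+TCDD UMIs. In the hepatocyte-like cells of ConA+FICZ, Perp was at 82.0 CPM (30 UMIs), and the part of the hepatocyte markers found in T-like cells in the Perp levels was not tested. Of 11 p53 target genes with enough UMIs, 0 reached 2-fold in ConA+TCDD over ConA+Veh and 0 in ConA+FICZ over ConA+TCDD. Phlda3, a p53 target that restrains Akt, was 2-fold or more higher in ConA+FICZ over ConA+Veh (1.06, 0.44 to 1.69), and Cdkn1a, which halts the cell cycle, in ConA+Veh over Naïve (1.25, 0.57 to 2.01), in which Trp53inp1 was lower (-1.37).

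Furin was measured with 110, 340, 372 and 210 UMIs. Its level was 58.5 CPM in Naïve (48.1 to 70.5), 38.6 in ConA+Veh (34.6 to 42.9), 56.2 in ConA+TCDD (50.6 to 62.2) and 30.1 in ConA+FICZ (26.2 to 34.5). Over T-like cells of all depths, Naïve and ConA+TCDD overlapped, and ConA+Veh and ConA+FICZ were below both. A single Naïve cell held 21 of the 110 Naïve UMIs (19.1%). The log2 ratio was -0.60 (-0.91 to -0.28) in ConA+Veh over Naïve, 0.54 (0.32 to 0.76) in ConA+TCDD over ConA+Veh, -0.36 (-0.61 to -0.11) in ConA+FICZ over ConA+Veh and -0.90 (-1.15 to -0.65) in ConA+FICZ over ConA+TCDD. The lower level in ConA+Veh than in Naïve was not seen within ranges of depth. There the ratio was 0.11 (-0.68 to 0.86) in cells under 3000 UMIs. It was 0.21 (-0.26 to 0.69) from 3000 to under 10000 UMIs and 0.04 (-0.80 to 1.02) at 10000 or more. The part of depth in the Furin levels was not tested. Of the other 8 proprotein convertases, 3 had enough UMIs in T-like cells, and none reached 2-fold between any 2 ConA libraries. Mbtps1, the site-1 protease, was at 25.3 CPM in ConA+Veh, 24.3 in ConA+TCDD and 17.6 in ConA+FICZ, and Pcsk7 at 13.4, 12.5 and 9.46. Tgfb1, whose product Furin cuts, was at 124, 120 and 98.0 CPM. Among 8 genes of the TGF-beta pathway 1 reached 2-fold between ConA libraries, Smad7, an inhibitor of TGF-beta signalling, at -1.14 (-1.39 to -0.89) in ConA+FICZ over ConA+Veh.

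Ctla2a was measured in T-like cells with 183, 705, 998 and 574 UMIs. Its level was 97.4 CPM in Naïve (83.8 to 113), 80.0 in ConA+Veh (74.2 to 86.2), 151 in ConA+TCDD (141 to 160) and 82.3 in ConA+FICZ (75.7 to 89.3). ConA+TCDD was above all other libraries, and ConA+Veh and ConA+FICZ were level. The log2 ratio was 0.91 (0.77 to 1.05) in ConA+TCDD over ConA+Veh, 0.04 (-0.12 to 0.20) in ConA+FICZ over ConA+Veh and -0.87 (-1.02 to -0.72) in ConA+FICZ over ConA+TCDD. This result moved with the gate. When markers were counted after every cell had been thinned to 1000 UMIs, which kept 314 ConA+TCDD and 282 ConA+FICZ T-like cells, the last ratio was -0.09, and when 1 marker was enough it was -1.06.

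Ctla2b, its neighbour, did not follow it. It had 15, 83, 60 and 42 UMIs, and its level was 7.98 CPM in Naïve (4.47 to 13.2), 9.42 in ConA+Veh (7.51 to 11.7), 9.06 in ConA+TCDD (6.91 to 11.7) and 6.02 in ConA+FICZ (4.34 to 8.14). All 4 intervals of the levels overlapped, with ConA+FICZ the lowest and, as said above, below ConA+Veh. The log2 ratio was -0.06 (-0.56 to 0.44) in ConA+TCDD over ConA+Veh and -0.59 (-1.19 to 0.00) in ConA+FICZ over ConA+TCDD. The intervals of the pair in ConA+TCDD over ConA+Veh, 0.77 to 1.05 for Ctla2a and -0.56 to 0.44 for Ctla2b, did not overlap, and the part of reads shared by the pair in this was not tested. Of the 10 cysteine cathepsins and cathepsin inhibitors, 9 had enough UMIs in T-like cells, and Ctsh alone was 2-fold or more lower in ConA+TCDD over ConA+Veh (-1.25, -2.27 to -0.32, 13 against 41 UMIs) and in ConA+FICZ over ConA+Veh (-1.56, -2.67 to -0.58). Ctsl, the protease that Ctla2a inhibits, was at 13.2 CPM in ConA+Veh, 11.5 in ConA+TCDD and 9.75 in ConA+FICZ.

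Ramp3 had 26, 117, 163 and 64 UMIs. Its level was 13.8 CPM in Naïve (9.04 to 20.3), 13.3 in ConA+Veh (11.0 to 15.9), 24.6 in ConA+TCDD (21 to 28.7) and 9.17 in ConA+FICZ (7.06 to 11.7). Over T-like cells of all depths, ConA+TCDD was above the other 3 and ConA+FICZ was the lowest of the ConA libraries. The log2 ratio was 0.89 (0.54 to 1.24) in ConA+TCDD over ConA+Veh, -0.53 (-1.0 to -0.08) in ConA+FICZ over ConA+Veh and -1.42 (-1.86 to -1.0) in ConA+FICZ over ConA+TCDD. Its receptor partner was barely measured: Calcrl had 7, 29, 12 and 14 UMIs. Ramp1, the partner that makes the receptor for CGRP, was at 48.6 CPM in ConA+Veh, 25.7 in ConA+TCDD and 27.5 in ConA+FICZ, so that Ramp1 was lower than in ConA+Veh with both ligands, at -0.92 (-1.19 to -0.66) and -0.82 (-1.07 to -0.57).

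**Figure D2:**
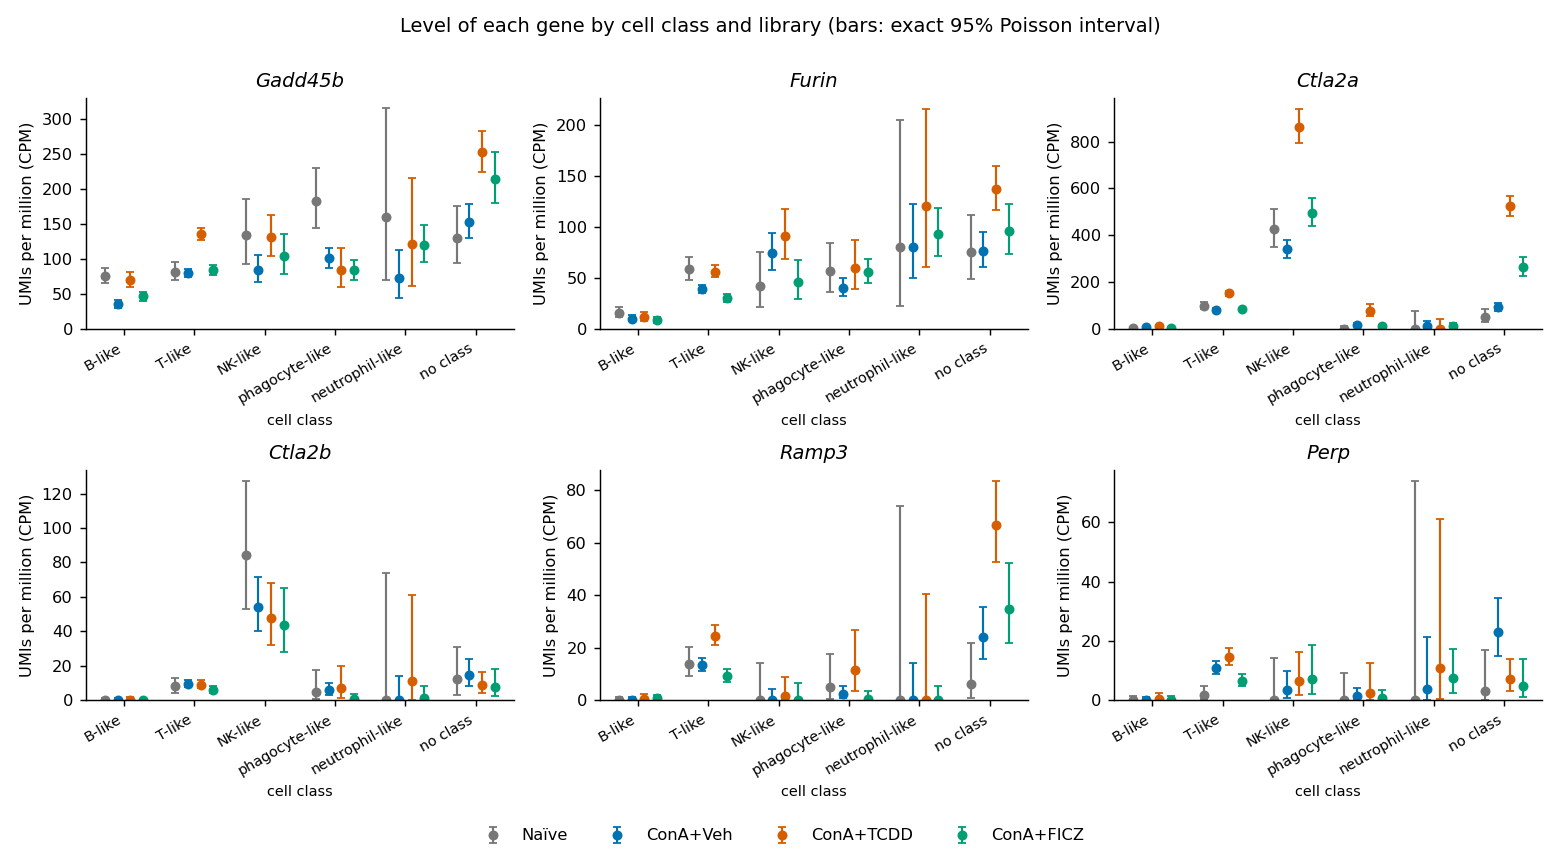
Level of each listed gene (CPM, vertical axes from 0) in 6 classes of cells, with 1 point per library and exact 95% Poisson intervals. Among the classes shown, Ctla2a is highest in the NK-like cells of ConA+TCDD, at 864 CPM, Ctla2b is highest in NK-like cells in all 4 libraries, and Ramp3 and Perp are near 0 in B-like cells.

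In NK-like cells Ctla2a was the listed gene that differed most between libraries. It was at 424 CPM in Naïve (349 to 511), 339 in ConA+Veh (302 to 379), 864 in ConA+TCDD (793 to 940) and 495 in ConA+FICZ (438 to 557), from 129, 248, 174 and 171 cells. Both ligands were above ConA+Veh, at 1.35 (1.14 to 1.56) for ConA+TCDD and 0.55 (0.30 to 0.79) for ConA+FICZ, and ConA+FICZ was below ConA+TCDD (-0.80, -1.02 to -0.59). Of the 4 listed genes with enough UMIs it was the 1 past 2-fold in ConA+TCDD over ConA+Veh, beside 1.59% of 6347 genes (3.34% lower). Nothing is read from this count, since that contrast picked the genes. None of the 4 was past 2-fold in ConA+FICZ over ConA+Veh (2.67% of genes higher, 4.1% lower) or ConA+FICZ over ConA+TCDD (4.01% higher, 3.37% lower). A single ConA+TCDD cell held 58 of the 542 UMIs (10.7%). Ctla2a was also at 1058, 766, 745 and 1442 CPM in endothelial-like cells. The 6 endothelial markers in NK-like cells summed to 0, 5.54, 3.19 and 1.83 CPM, with Kdr, Ptprb and Clec4g at 0 in all 4 libraries, and their part in the Ctla2a levels was not tested.

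Ctla2b was also an NK-like gene, at 84.1 CPM in Naïve (52.7 to 127), 54.3 in ConA+Veh (40.2 to 71.8), 47.8 in ConA+TCDD (32.3 to 68.3) and 43.8 in ConA+FICZ (28.1 to 65.2). All 4 intervals overlapped, so the split between Ctla2a and Ctla2b was present in NK-like cells too. Gadd45b was at 134, 84.2, 131 and 104 CPM in the same order, with 0.63 (0.17 to 1.10) in ConA+TCDD over ConA+Veh and an interval around 0 for ConA+FICZ over ConA+TCDD (-0.33, -0.84 to 0.18). The former turned to -0.38 with markers counted after thinning, from 93 NK-like cells of ConA+TCDD and 160 of ConA+Veh. Furin was at 42.1, 74.2, 90.8 and 45.7 CPM, and ConA+FICZ was below ConA+TCDD (-0.99, -1.73 to -0.29). Perp had 0, 3, 4 and 4 UMIs and Ramp3 0, 0, 1 and 0, which is at or near the floor of 3 counts. In NK-like cells hepatocyte markers summed to 38.2 CPM in Naïve, 33.2 in ConA+Veh, 3.19 in ConA+TCDD and 150 in ConA+FICZ, and their part in these levels was not tested.

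B-like cells, from 1088, 841, 418 and 789 cells, held Gadd45b and little of the rest. Gadd45b was at 76.0 CPM in Naïve (66.0 to 87.2), 35.2 in ConA+Veh (30.1 to 40.9), 69.6 in ConA+TCDD (59.0 to 81.5) and 46.0 in ConA+FICZ (39.9 to 52.7). It was lower in ConA+Veh than in Naïve (-1.11, -1.41 to -0.81), and both ligands were above ConA+Veh, at 0.98 (0.66 to 1.31) and 0.39 (0.09 to 0.69). ConA+FICZ was below ConA+TCDD (-0.60, -0.91 to -0.29). B-like cells played no part in the clusters that picked the gene, although they come from the same libraries. Furin was at 8.34 to 15.6 CPM, and Perp, Ramp3 and Ctla2b had 0 to 3 UMIs in each library. Ctla2a was the third of 3 listed genes with enough UMIs there, and its shares of cells are given below. The median log2 ratio of these 3 was 0.95 in ConA+TCDD over ConA+Veh (0.03 over all genes tested). In ConA+FICZ over ConA+TCDD it was -0.60 (0.00).

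In mononuclear phagocyte-like cells, of which ConA+TCDD held 38, Gadd45b was at 183 CPM in Naïve (144 to 230), 101 in ConA+Veh, 84.3 in ConA+TCDD and 83.3 in ConA+FICZ. The ConA libraries overlapped there. Ctla2a was at 0, 16.6, 75.2 and 10.2 CPM, with 33 UMIs in ConA+TCDD. Furin was at 40.3 CPM in ConA+Veh and 55.7 in ConA+FICZ (0.47, 0.03 to 0.91).

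Cells without a class had low depth, with medians of 1126 to 1555 UMIs, and Ctla2a differed widely among them. Ctla2a was at 51.6 CPM in Naïve (30.03 to 82.5), 90.7 in ConA+Veh (73.3 to 111), 525 in ConA+TCDD (484 to 569) and 264 in ConA+FICZ (226 to 307). Both ligands were above ConA+Veh, at 2.53 (2.22 to 2.86) and 1.54 (1.17 to 1.92). One ConA+TCDD cell held 77 of the 598 UMIs (12.9%). Ramp3 was at 6.07, 24.1, 66.8 and 34.6 CPM and Gadd45b at 130, 152, 253 and 214 CPM, so the order of the ConA libraries was the same for these 3 genes. Furin, with 79 UMIs in ConA+Veh, 156 in ConA+TCDD and 61 in ConA+FICZ, had this order of CPM too. A single ConA+FICZ cell held 12 of its UMIs. For Ramp3 a single ConA+FICZ cell held 9 of 22 UMIs (40.9%) and a single ConA+Veh cell 6 of 25. The order of ConA+FICZ and ConA+Veh thus rests on few cells for Ramp3. Perp had another order, at 23.1 CPM in ConA+Veh, 7.03 in ConA+TCDD and 4.72 in ConA+FICZ. Of the 6 genes, Ctla2a and Ramp3 were 2-fold or more higher in ConA+TCDD over ConA+Veh, beside 2.85% of genes, and Perp was 2-fold or more lower, beside 7.85%. Nothing is read from these counts, since the contrast of these libraries picked the genes. In ConA+FICZ over ConA+Veh Ctla2a was past 2-fold upward, beside 3.63%, and Perp downward, beside 7.26%. Nothing is read from these counts either, since ConA+Veh was among the libraries that picked the genes. These cells held 179 CPM of T markers and 100 of NK markers in ConA+TCDD, 330 and 127 in ConA+Veh, and 363 and 226 in ConA+FICZ. Markers of other classes differed between libraries too. Granulocyte progenitor markers summed to 1213 CPM in ConA+Veh, 325 in ConA+TCDD and 236 in ConA+FICZ, and erythroid markers to 444, 553 and 73.9 CPM. B markers summed to 491, 91.4 and 262 CPM and neutrophil markers to 262, 73.8 and 604 CPM. The make-up of these cells thus differed between the libraries, and its part in the differences was not tested.

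**Figure D3:**
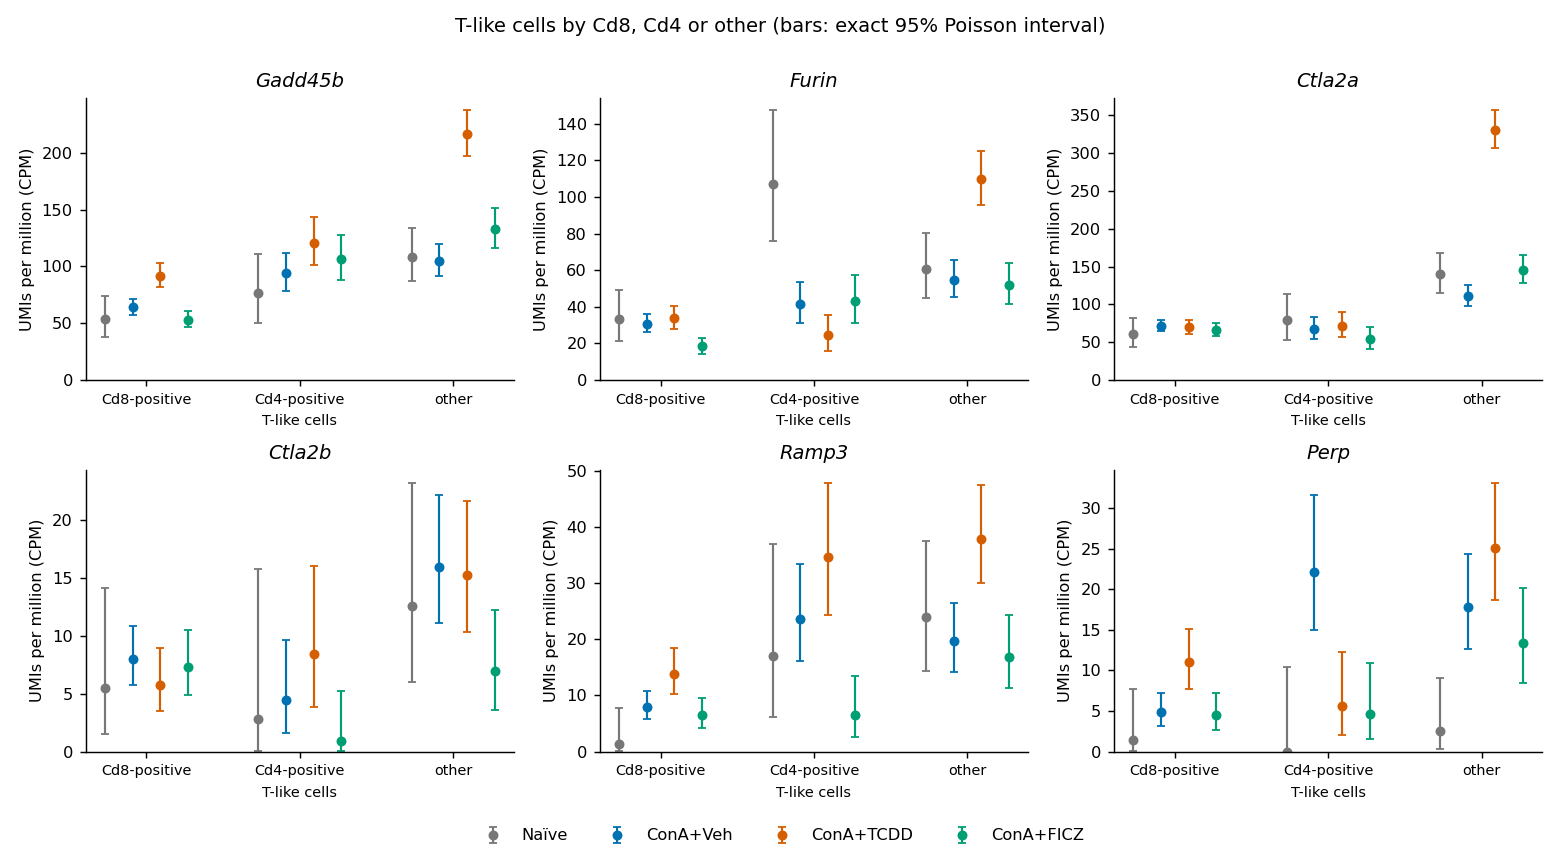
Level of each listed gene (CPM, vertical axes from 0) in Cd8-positive, Cd4-positive and remaining T-like cells, by library, with exact 95% Poisson intervals. Cd8-positive cells have a Cd8a or Cd8b1 UMI and none of Cd4, and Cd4-positive cells the reverse. The remaining cells have none of these UMIs or have both kinds, and cells with a Foxp3 UMI are not shown. In the remaining cells, ConA+TCDD is above the other libraries for Gadd45b, Furin and Ctla2a, and in Cd8-positive cells Ctla2a lies between 60.7 and 71.7 CPM in all 4 libraries.

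Within T-like cells, the excess of Ctla2a in ConA+TCDD lay mainly outside the Cd8-positive, Cd4-positive and Foxp3-positive cells. The remaining cells numbered 252, 270, 299 and 211. They had no UMI of Cd8a, Cd8b1, Cd4 or Foxp3, or had both a Cd4 UMI and a Cd8a or Cd8b1 UMI without Foxp3. In them Ctla2a was at 140 CPM in Naïve (115 to 169), 111 in ConA+Veh (97.8 to 126), 331 in ConA+TCDD (306 to 357) and 146 in ConA+FICZ (128 to 165). In Cd8-positive cells, of which there were 173, 396, 277 and 250, it was at 60.7, 71.7, 69.9 and 66.5 CPM. The log2 ratio of ConA+TCDD over ConA+Veh was 1.57 (1.36 to 1.79) in the former and -0.04 (-0.28 to 0.20) in the latter, and these intervals did not overlap. Cells in which a gene had no UMI are not cells without it. The remaining cells had a median depth of 5103 UMIs in ConA+TCDD, against 9134 for Cd8-positive cells. NK markers in the remaining cells summed to 188, 93.1, 58.6 and 87.5 CPM, the lowest in ConA+TCDD.

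Furin was also highest in ConA+TCDD in these cells, at 60.5, 54.7, 110 and 51.9 CPM, with 1.0 (0.68 to 1.34) in ConA+TCDD over ConA+Veh and -1.08 (-1.45 to -0.72) in ConA+FICZ over ConA+TCDD. Gadd45b was at 108, 105, 217 and 133 CPM in them, and at 53.8, 64.3, 91.9 and 53.1 CPM in Cd8-positive cells. In both subsets ConA+TCDD was above ConA+Veh, at 1.05 (0.81 to 1.28) and 0.52 (0.29 to 0.74). Ramp3 was above ConA+Veh in both as well, at 0.95 (0.39 to 1.52) and 0.80 (0.16 to 1.43), and its ratio of ConA+FICZ over ConA+TCDD was -1.16 (-1.83 to -0.53) and -1.08 (-1.83 to -0.37).

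Cd4-positive cells were few, at 83, 119, 81 and 77. Ramp3 was at 23.6 CPM in ConA+Veh (16.2 to 33.3), 34.6 in ConA+TCDD (24.4 to 47.8) and 6.53 in ConA+FICZ (2.63 to 13.5), and ConA+FICZ was below both. Furin there was at 107 CPM in Naïve (76.0 to 147), 41.3 in ConA+Veh, 24.3 in ConA+TCDD and 42.9 in ConA+FICZ, an order unlike that of the other T-like cells. Perp was at 0, 22.1, 5.62 and 4.67 CPM, with 30 UMIs in ConA+Veh, 6 in ConA+TCDD and 5 in ConA+FICZ. Foxp3-positive cells numbered 4, 14, 16 and 23, too few for a ratio of most genes.

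**Figure D4:**
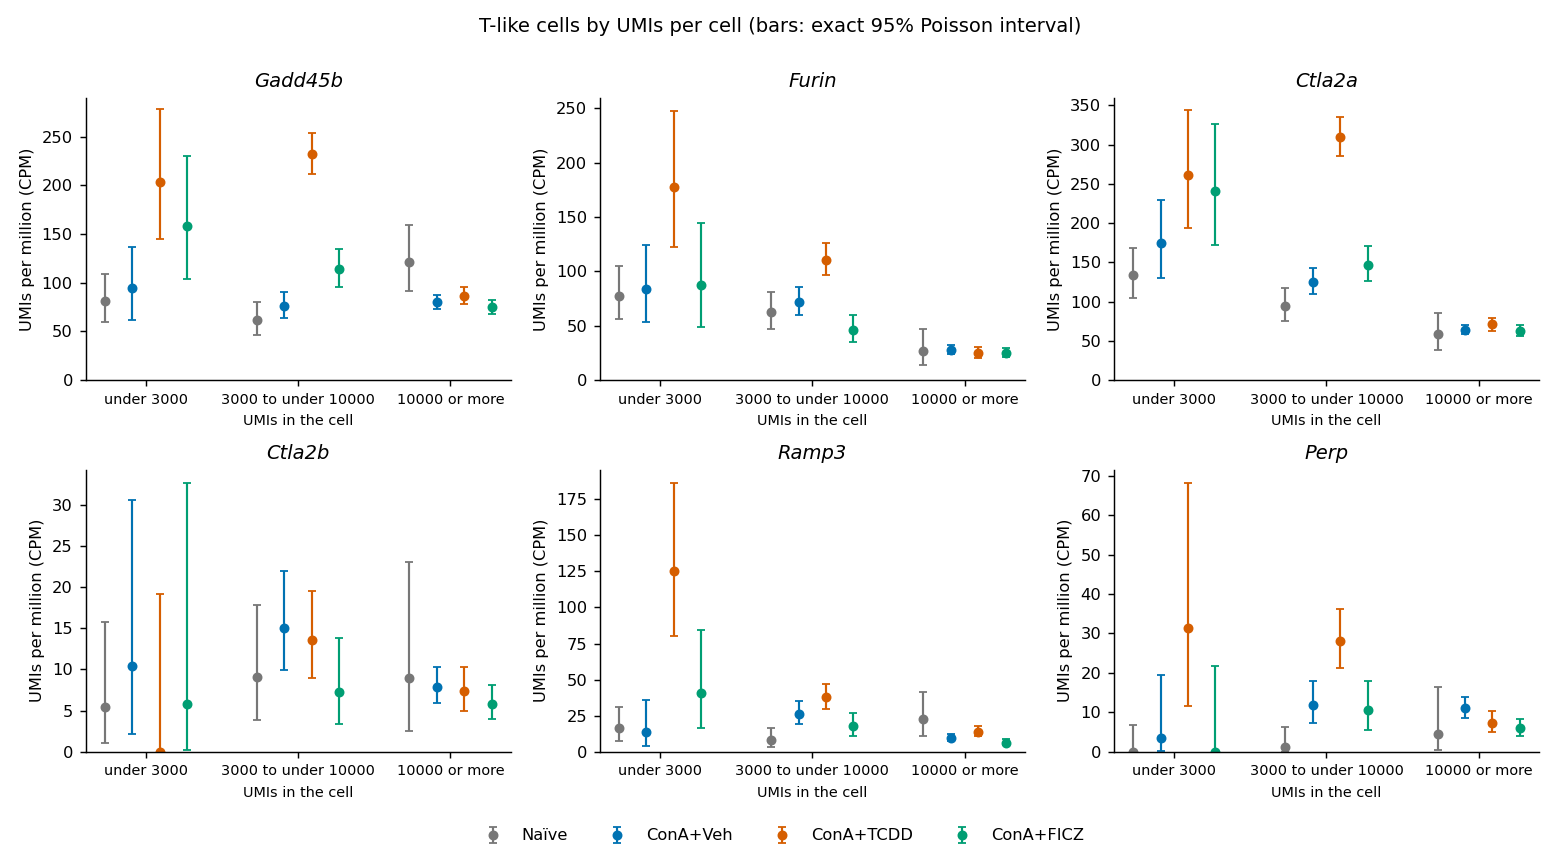
Level of each listed gene (CPM, vertical axes from 0) in T-like cells by the UMIs in the cell, by library, with exact 95% Poisson intervals. ConA+TCDD stands above the other libraries for Gadd45b and Ctla2a from 3000 to under 10000 UMIs, at 232 and 309 CPM, and the 3 ConA libraries lie close together for both genes in cells of 10000 UMIs or more.

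The difference also depended on the depth of the T-like cell. In cells of 3000 to under 10000 UMIs, Gadd45b was at 61.2 CPM in Naïve, 76.5 in ConA+Veh, 232 in ConA+TCDD and 114 in ConA+FICZ, a log2 ratio of 1.60 (1.32 to 1.89) for ConA+TCDD and 0.58 (0.23 to 0.93) for ConA+FICZ over ConA+Veh. In cells of 10000 UMIs or more the same ratios were 0.11 (-0.09 to 0.30) and -0.09 (-0.28 to 0.09). For Ctla2a, ConA+TCDD over ConA+Veh was at 1.31 (1.09 to 1.53) in the middle range and 0.14 (-0.07 to 0.36) in the deep cells, and ConA+FICZ over ConA+Veh was at 0.23 (-0.06 to 0.52) in the middle range. In cells under 3000 UMIs, ConA+TCDD over ConA+Veh was at 1.11 (0.37 to 1.88) for Gadd45b and 0.58 (-0.01 to 1.18) for Ctla2a, and ConA+FICZ over ConA+TCDD at -0.36 (-1.13 to 0.38) and -0.12 (-0.75 to 0.51). Both genes thus had few UMIs and wide intervals in the shallow cells. For Ramp3, ConA+FICZ was below ConA+TCDD in the middle range (-1.09, -1.84 to -0.39) and in the deep cells (-1.15, -1.79 to -0.53). Furin and Perp did not share this. For Furin that ratio was -1.26 (-1.71 to -0.84) in the middle range and -0.02 (-0.40 to 0.35) in the deep cells. For Perp it was -1.42 (-2.41 to -0.53) and -0.31 (-1.05 to 0.44). In ConA+TCDD over ConA+Veh, Furin was at 0.62 (0.30 to 0.94) and -0.14 (-0.50 to 0.21) in the same order. Perp was at 1.26 (0.52 to 2.06) and -0.59 (-1.23 to 0.03). Ramp3 was at 0.53 (-0.01 to 1.08) and 0.51 (-0.02 to 1.03), so its interval included 0 in both ranges. In cells under 3000 UMIs, Ramp3 was at 3.17 (1.62 to 5.15) in ConA+TCDD over ConA+Veh, from 24 against 4 UMIs. Deep cells held 6729828 of the 8808398 UMIs of T-like cells in ConA+Veh. They held 4368495 of 6624963 in ConA+TCDD and 5569844 of 6977494 in ConA+FICZ. The part of this mix of depths in the levels over all T-like cells was not tested. The limits of 3000 and 10000 UMIs, and the splits of the next paragraph, were set after the data had been seen.

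T-like cells were also split by the proliferation genes Mki67 and Top2a. In those with no UMI of either, numbering 481, 277, 370 and 289, Gadd45b was at 78.1, 74.7, 207 and 111 CPM and Ctla2a at 106, 102, 284 and 108 CPM. Both were highest in ConA+TCDD there, and Gadd45b was also higher in ConA+FICZ than in ConA+Veh (0.57, 0.25 to 0.90). In the cells with such a UMI Gadd45b was at 95.2, 81.0, 100 and 71.9 CPM and Ctla2a at 59.9, 75.1, 85.8 and 70.9 CPM. Furin differed in direction between these cells in ConA+FICZ over ConA+Veh. It was at 0.48 (0.00 to 0.98) in the cells without such a UMI and -0.85 (-1.18 to -0.52) in those with one. This split used the UMIs of cells that had not been thinned, so it also divided the cells by depth. In ConA+TCDD the 303 cells with such a UMI held 4462782 UMIs of all genes, against 2162181 in the 370 cells without. The part of depth in the split was not tested. Mki67 itself was at 317 CPM in the T-like cells of ConA+Veh, 211 in ConA+TCDD and 149 in ConA+FICZ. T-like cells without a UMI of Cd52, a surface glycoprotein of lymphocytes, after thinning to 1000 UMIs were 126 of 483 in Naïve, 195 of 779 in ConA+Veh, 346 of 658 in ConA+TCDD and 172 of 550 in ConA+FICZ. Gadd45b was at 105, 85.3, 213 and 93.2 CPM in them and at 71.7, 78.2, 81.1 and 79.7 CPM in the cells with a Cd52 UMI. In the latter, Ctla2a was still higher in ConA+TCDD than in ConA+Veh (0.39, 0.20 to 0.58). Cells without a Cd52 UMI were most frequent in ConA+TCDD, the library whose clusters picked the genes, so this split is a description only.

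Shares of cells with a UMI were compared after 1000 UMIs had been drawn at random from every cell, without the 29, 20, 15 and 11 T-like cells that held fewer. Gadd45b was then found in 7.04% of T-like cells in Naïve (4.92% to 9.70%), 5.91% in ConA+Veh (4.36% to 7.80%), 14.7% in ConA+TCDD (12.1% to 17.7%) and 7.27% in ConA+FICZ (5.25% to 9.77%). Ramp3 was found in 1.24%, 1.67%, 5.02% and 1.45%, and Furin in 5.59%, 5.52%, 8.97% and 4.91%. ConA+TCDD was the highest for each of these genes. Ctla2a was found in 8.90%, 9.63%, 14.9% and 10.4% of T-like cells, with 0% to 0.787% in B-like cells, whose median depths before thinning were 2131.5 to 4205 UMIs against 2684.5 to 8806 in T-like cells. B-like cells had thinned shares of Ramp3 of 0% to 0.129%, of Furin of 0.928% to 1.61% and of Gadd45b of 3.74% to 7.28%. The Gadd45b share in T-like cells of Naïve, 7.04%, was no higher than the 7.28% of B-like cells of that library, and no share of free RNA was measured for this gene. Without thinning, Gadd45b had a UMI in 16.2%, 35.4%, 47.8% and 42.6% of T-like cells, and Ctla2a in 19.5%, 34.5%, 37.9% and 36.2%.

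At this depth each gene was found in a minority of the cells, and the genes were seldom found in the same cell. At least 1 listed gene had a UMI in 20.5% of thinned T-like cells in Naïve, 22.6% in ConA+Veh, 37.2% in ConA+TCDD and 22.5% in ConA+FICZ. At least 2 had one in 2.28%, 2.18%, 7.14% and 2.36%. Cells with at least 3 numbered 2, 0, 10 and 0. In ConA+TCDD, 97 of the 658 thinned T-like cells held Gadd45b, 98 Ctla2a, 59 Furin and 33 Ramp3. There, 18 cells held Furin and Ctla2a together, which was 30.5% of the Furin cells and 18.4% of the Ctla2a cells. Gadd45b and Ctla2a shared 15 cells (15.5% and 15.3%), and Gadd45b and Ramp3 shared 8 (8.25% and 24.2%). Ctla2a was thus more frequent among Furin cells than among all T-like cells, and about as frequent among Gadd45b cells. Gadd45b was more frequent among Ramp3 cells than among all, from 8 cells. The overlaps were not tested. Perp, with 11 positive cells, shared 2 with Gadd45b and 2 with Furin.

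Several known AhR target genes were hardly measured in T-like cells. Of 7 genes of the AhR list, which also holds Ahr and Arnt themselves, 3 had enough UMIs in T-like cells. None of the 3 reached 2-fold in any comparison in these cells, and most targets of the list could not be read there. Tiparp, an AhR target that feeds back on the receptor, was at 16.6 CPM in ConA+Veh, 16.6 in ConA+TCDD and 13.5 in ConA+FICZ. Ahr itself was at 25.7, 27.2 and 20.1 CPM, and Cyp1a1, the classic AhR target, had 1, 1 and 0 UMIs. Of 8 NF-kB-induced genes none reached 2-fold, with Nfkbia at 460, 518 and 508 CPM.

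Among 12 genes of T cell activation and regulatory T cells, Cd200, a surface protein that restrains myeloid cells, was 2-fold or more higher in ConA+TCDD over ConA+Veh (1.19, 0.82 to 1.57), and it had been a leading gene of a cluster that picked Gadd45b. In ConA+FICZ over ConA+Veh it was at 0.81 (0.42 to 1.21). Ifng, interferon gamma, was at 96.8 CPM in Naïve, 26.5 in ConA+Veh, 40.8 in ConA+TCDD and 12.9 in ConA+FICZ, and was the 1 gene of this list past 2-fold in ConA+FICZ over ConA+TCDD (-1.66, -2.02 to -1.31). It too had led such a cluster. Foxp3 was 2-fold or more higher in ConA+FICZ over ConA+Veh (1.41, 0.74 to 2.12), and Ifng (-1.04, -1.40 to -0.68) and Mki67 (-1.08, -1.19 to -0.98) were lower. In ConA+Veh over Naïve, Il2ra (1.46), Ctla4 (1.40), Tnfrsf4 (1.37) and Mki67 (2.81) of this list were past 2-fold upward and Ifng (-1.87) downward. Of the other lists, Pcsk4 (1.53), Cst7 (1.43) and Skil (1.07) were past 2-fold upward in that comparison and Tgfbr2 (-1.64) and Itgae (-1.58) downward.

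Across 24 points, each a class of at least 50 cells in a library, the genes whose log2(CPM + 10) followed each listed gene most closely were named by Pearson's r among 9638 genes. For Furin they were Mvb12b (0.89), Fosl2 (0.83) and Rab8b (0.79), for Gadd45b Mapkapk3 (0.78), Itgav (0.77) and Nin (0.77), and for Ramp3 Tmtc2 (0.88), Slc5a3 (0.86) and Il2 (0.81). For Ctla2a they were F2r (0.88), Atp2b4 (0.87) and Serpinb9 (0.86), and for Ctla2b Klra3 (0.94), Ugcg (0.93) and Eomes (0.93), of which Klra3 and Eomes are known from NK cells. For Perp they were Tm4sf4 (0.85), Ambp (0.85) and Ak4 (0.84), of which Ambp is made by hepatocytes. The only hepatocyte-like point was that of ConA+FICZ, and its weight in the Perp values was not tested. The points share libraries and depth, so these values describe the pattern and carry no p.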

How the data were processed

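The authors made the libraries with the 10x Genomics 5′ kit from liver cells enriched on a Percoll gradient, and aligned and counted the reads with Cell Ranger 3.0.2 on mm10. The deposited values are raw UMI counts per gene and cell, with no normalization, for barcodes of at least 500 UMIs. No doublet caller was run, since cells tied between classes were left without a class, and leaving out the 5% of cells with the most UMIs was tried instead.

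Here each cell was classed from 10 lists of 6 markers, and T-like cells were divided by UMIs of Cd8a or Cd8b1, Cd4 and Foxp3. For each class and library, the summed UMIs of a gene were expressed per 1000000 UMIs of the class. Sums received exact Poisson intervals, shares exact binomial (Clopper-Pearson) intervals, and ratios intervals from the exact binomial distribution of the sums, all at 95%; PCR and sampling of mice are not covered. A gene was counted in a comparison with at least 20 UMIs in both libraries together, and called at 2-fold. A count of 0 has a floor of 3 counts. Fits across samples, p-values and SDs were not possible with 1 library per condition. The members and lists were chosen with earlier results of these data known. The genes named are the listed genes, genes of the lists past 2-fold, and the 3 genes most alike to each listed gene among those with at least 200 UMIs; other genes of the lists were named as context after their values had been seen. The ratio script was tested on simulated data. Promoters were taken from RefSeq, and positions from GENCODE M21, whose build matches mm10. The work was done in Python 3.11.15 with Biopython 1.88 for alignments, scipy 1.17.1 for intervals, pandas 2.3.3 and numpy 2.4.6 for tables, and matplotlib 3.10.9 for plots.

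The alternatives were gates at 1 or 3 markers, markers counted after thinning to 1000 UMIs, cells over 10% mitochondrial UMIs left out, totals without ribosomal protein and mitochondrial genes, the mean over cells of UMIs per 10000, no correction for depth, and other folds. The gate at 1 marker was added after the data had been seen.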

Additional observations from a re-analysis of the deposited data

Results flagged for a closer look

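In several places a listed gene differed in opposite directions in 2 kinds of cells under the same pair of libraries, with at least 50 cells and 20 UMIs on each side. The differences between the kinds of cells were not tested, since each condition had 1 library. Values are log2 ratios of CPM.

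Furin in ConA+FICZ over ConA+Veh was at 0.47 in mononuclear phagocyte-like cells, against -0.36 in T-like and -0.70 in NK-like cells. Furin in ConA+TCDD over ConA+Veh was at 1.0 in T-like cells outside the Cd8-positive, Cd4-positive and Foxp3-positive groups and at -0.76 in Cd4-positive T-like cells. In ConA+FICZ over ConA+TCDD it was at 0.82 in Cd4-positive cells, against -0.88 in Cd8-positive cells and -1.08 in the remaining T-like cells. The Cd4-positive values rest on 56 UMIs in ConA+Veh, 26 in ConA+TCDD and 46 in ConA+FICZ.

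Perp in ConA+TCDD over ConA+Veh was at 1.17 in Cd8-positive cells and at -1.98 in Cd4-positive cells, the latter from 6 against 30 UMIs. Gadd45b in ConA+FICZ over ConA+Veh was at 0.34 in the remaining T-like cells and at -0.27 in Cd8-positive cells.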

How the results depend on the processing

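For 40 log2 ratios of the listed genes in T-like and NK-like cells, 8 alternatives gave 319 values, of which 268 stayed within the interval of counting error, 46 moved beyond it and 5 changed sign. Leaving out cells over 10% mitochondrial UMIs, or ribosomal protein and mitochondrial genes, moved none of the 40 beyond its interval.

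In T-like cells, ConA+FICZ over ConA+TCDD stayed below 0 for all 6 genes wherever it moved. With markers counted after thinning it was -0.089 for Ctla2a, -0.63 for Furin, -0.41 for Gadd45b, -0.25 for Perp and -2.12 for Ramp3, from fewer cells. With no correction for depth it was -0.54 for Ctla2a, -0.56 for Furin and -0.35 for Gadd45b. At 1 marker Ctla2a was at -1.06, at 3 markers Gadd45b at -0.49, without the 5% of cells with the most UMIs Gadd45b at -0.87, and as a mean over cells Furin at -1.18. The causes were not tested. With no correction for depth, ConA+Veh over Naïve turned to 1.30 for Ctla2a and 0.99 for Furin in T-like cells and 0.18 for Gadd45b in NK-like cells, a setting that keeps differences in UMIs per cell. With markers counted after thinning, Gadd45b in NK-like cells turned to -0.38 in ConA+TCDD over ConA+Veh and 0.18 in ConA+Veh over Naïve.

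The number of listed genes at 2-fold or more in ConA+FICZ over ConA+TCDD was 2; it was 1 after thinning, 1 with no correction for depth, 6 at 1.5-fold and 0 at 4-fold. For ConA+FICZ over ConA+Veh it was 0, with 1 after thinning and 2 at 1.5-fold. For ConA+TCDD over ConA+Veh it was 0, with 2 without the deepest 5% of cells, 2 at 1 marker, 3 as a mean over cells and 3 at 1.5-fold. For ConA+Veh over Naïve it was 1, with 0 after thinning, 5 with no correction for depth and 2 at 1.5-fold. The share of all genes is not given for the other settings and folds, so nothing is read from these counts. No paired analysis was possible because each condition had 1 library. Depth limits Perp, Ramp3 and Ctla2b most, which had 3 to 163 UMIs per library in T-like cells.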
